A study of Mus musculus with 24 samples.

Results

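Transformation of wild-type (WT) mouse embryonic fibroblasts by Ras and Myc was described here at the level of total cellular RNA. The members were the arrays labelled as total RNA of transformed WT cells (3) and of untransformed WT cells (3), which made 6 of the 24 arrays of the study. Both states came from the same 3 WT embryos, so each transformed culture had an untransformed counterpart with the same embryo number. The values were log2 RMA intensities from Affymetrix Mouse Gene 1.0 ST arrays, on which a difference of 1 is a factor of 2 in probe signal.

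The groups used were transformed WT cells with 2 intact Eif4e alleles, untransformed WT cells, and, as a comparison, transformed and untransformed cells from 3 Eif4e+/- embryos, called Het here. The transformed cells of either genotype carried introduced Ras and Myc, and the untransformed cells were primary cells without them. All were early passage, isolated at embryonic day 13.5, grown in DMEM with 10% serum and harvested while growing exponentially. The labels do not give the species, vector or promoter of the introduced Ras and Myc, nor whether a transformed culture was a clone or a pool. The study asked how the dose of Eif4e, the gene of the mRNA cap-binding initiation factor, bears on transformed cells. The comparison within WT embryos gives the change of the transcriptome at the normal dose. The labels give 1 transformed culture per embryo, so the spread among 3 embryos includes differences between transformation events.

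Ras proteins are small GTPases that pass signals from growth factor receptors to the RAF, MEK and ERK kinases, and ERK output includes Ets-family transcription factors, D-type cyclin and feedback inhibitors of the same cascade. MYC is a transcription factor that binds E-boxes as a dimer with MAX and is known for driving ribosome production, nucleotide synthesis and growth. Together these oncogenes transform rodent fibroblasts, which usually lose stress fibres, matrix and adhesions as they do so. Untransformed embryonic fibroblasts are known for their contractile actin, regulated by SRF and its MRTF coactivators, and for making collagen-rich matrix.

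The total RNA arrays were evenly scaled, with mean log2 intensities of 7.47 to 7.50. Over all probe sets, the median correlation of an array with the other total RNA arrays was 0.960, 0.962 and 0.969 for the transformed and 0.974, 0.977 and 0.976 for the untransformed WT cultures. Arrays carry no read depth, and the number of embryos limits the precision. Xist, expressed from the inactive X chromosome, read 11.71, 5.46 and 11.69 in the transformed cultures of embryos 1, 2 and 3 and 10.87, 5.69 and 11.06 in their untransformed counterparts. The Y-linked gene Uty read 4.81, 8.98 and 4.69 in transformed and 4.66, 8.78 and 4.72 in untransformed cells. Embryo 2 stood apart from embryos 1 and 3 in both genes and in both states, so the sex-linked pattern of each transformed culture was that of the untransformed culture with its number. Embryos 1 and 3 read alike, so these genes cannot tell their cultures apart.

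Transformation changed the level of many genes. In the limma fit with embryo as a block, 1349 of 19661 genes fell (6.86% of genes) and 1100 rose (5.59%) at an adjusted p under 0.05, which together were 12.5%. Falls were the larger changes: 445 of the genes that fell, against 184 of those that rose, changed by at least 1 on the log2 scale, 144 against 29 by at least 2, and 45 against 3 by at least 3. The median size was 0.73 for falls and 0.58 for rises, and the median change over all genes was 0.01. In 31.8% of all genes the 3 transformed and the 3 untransformed values did not overlap. With WT embryo 1 left out, 425 genes rose and 550 fell, and with WT embryo 2 left out 457 rose and 686 fell. With WT embryo 3 left out, 1028 rose and 1328 fell. Calls made in the full fit and again without each of the 6 embryos in turn numbered 289 rises and 474 falls. Folds and percentages below are ratios of array signal, and where the lower state lies near background they give no exact ratio of RNA. The gene lists below were not tested as sets, and a share of calls near 5.59% higher or 6.86% lower is that of genes at large.

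The largest falls covered genes of several kinds. Tll1, a tolloid-like metalloprotease related to the procollagen-processing enzyme BMP1, lies on chromosome 8 and read 6.60, 6.46 and 6.26 in transformed cells of embryos 1 to 3, against 12.22, 11.92 and 11.89 in untransformed cells. Every transformed culture was far below every untransformed one, with little spread in either state. The change was -5.57 ± 0.16 (limma SE, limma adjusted p = 4.72e-05), so that transformed cells held 2.11% of the untransformed signal. Each SE in the text is the moderated limma value, whose residual spread is shared by WT and Het embryos. It is not the spread of the 3 WT changes alone. Postn, which encodes the matrix protein periostin on chromosome 3, read 7.12, 8.10 and 7.01 in transformed and 12.43, 12.62 and 12.62 in untransformed cells. The groups did not overlap, the transformed culture of embryo 2 was the highest of its group, and the change was -5.15 ± 0.74 (adjusted p = 0.00652). Ptprz1, a receptor-type tyrosine phosphatase, read 4.90, 4.89 and 4.92 in transformed and 10.10, 8.93 and 9.57 in untransformed cells, a change of -4.63 ± 0.19 (adjusted p = 8.93e-05). Its transformed values were nearly identical while its untransformed values were more widely spread. Further large falls were in the macrophage lysozyme gene Lyz2 (-4.14), the cadherin Cdh10 (-4.13), the tendon-cell gene Tnmd (-3.94), the IGFBP protease Pappa (-3.72), the secreted protein Ccdc80 (-3.56), the protease inhibitor Tfpi2 (-3.50) and the receptor ligand gene Alkal1 (-4.23). All of these kept their call without any of the 6 embryos.

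**Figure D1:**
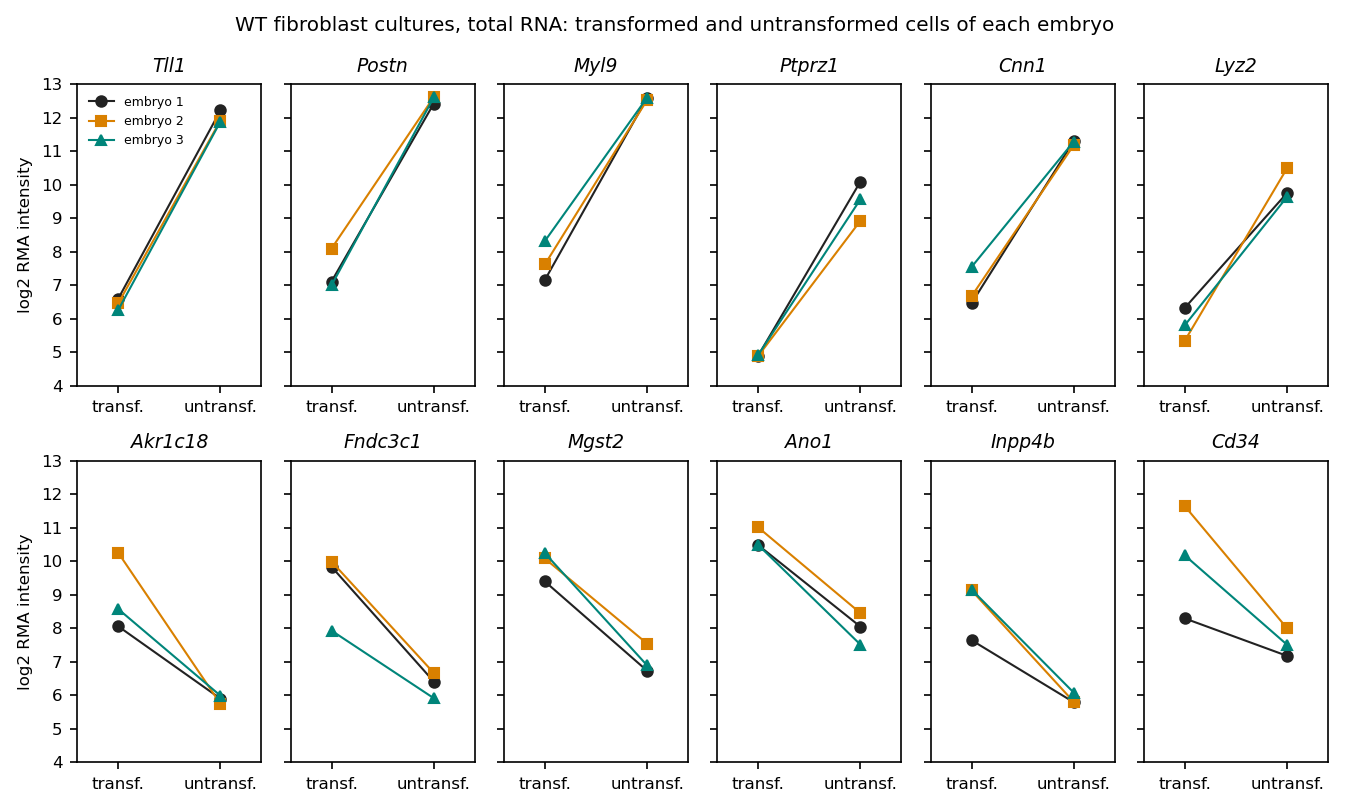
Log2 RMA intensity (vertical axis) of 12 genes in the transformed (left in each panel) and untransformed (right) WT culture of embryos 1, 2 and 3, with a line joining the cultures of an embryo. In the upper row the transformed values of Tll1 are 6.26 to 6.60, against 11.89 to 12.22 in untransformed cells; in the lower row Ano1 is at 10.49 to 11.02, against 7.52 to 8.46.

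The largest rises were smaller than the largest falls. Akr1c18, a hydroxysteroid dehydrogenase that inactivates progesterone, lies on chromosome 13 and read 8.06, 10.26 and 8.58 in transformed cells, against 5.90, 5.75 and 5.99 in untransformed cells. The groups did not overlap and the transformed culture of embryo 2 was the highest. The change was 3.09 ± 0.40 (SE, limma adjusted p = 0.00442). Its untransformed values lay below 7.26, the median of all total RNA values, where signal may be partly background, which was not measured here. Mgst2, a microsomal glutathione transferase on chromosome 3, read 9.40, 10.09 and 10.25 in transformed and 6.74, 7.55 and 6.90 in untransformed cells, a change of 2.85 ± 0.30 (adjusted p = 0.00224). Ano1, a calcium-activated chloride channel gene on chromosome 7, read 10.49, 11.02 and 10.49 in transformed and 8.05, 8.46 and 7.52 in untransformed cells, a rise of 6.31-fold (adjusted p = 0.00236). Both genes were high in all 3 transformed cultures with no overlap between the states.

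Other rises that kept their call without any of the 6 embryos covered several roles. Inpp4b, a phosphoinositide phosphatase, rose by 2.75 on the log2 scale, Hao1, a peroxisomal hydroxyacid oxidase, by 2.71, and the phosphodiesterase gene Pde3b by 2.27. Aim2, a sensor of cytosolic DNA, rose by 2.26, the sodium-proton exchanger Slc9a2 by 2.39, the glycan-branching enzyme Mgat4a by 2.27 and the surface sialomucin Cd34 by 2.48. The genes Fndc3c1 (2.92), D5Ertd615e (2.95), Sh2d1b1 (2.62), Klra2 (2.47) and Samd12 (2.30) rose as well. Tmprss11f had the largest rise of all (3.14 ± 0.64, adjusted p = 0.0218), with transformed values of 6.28, 8.51 and 10.39 against 5.26, 5.29 and 5.22 in untransformed cells. Its transformed values differed widely between cultures, lowest in embryo 1 and highest in embryo 3, and the call did not hold in the fit without WT embryo 2 (adjusted p = 0.0945). The calls of Nefl, a neurofilament gene (3.04), Bmp2, a bone morphogenetic protein (2.75), Il33, an alarmin (2.47), and Plet1 (2.44) were also lost when 1 embryo was left out. Calls of Nefl (WT 1; 0.0614), Bmp2 (WT 1, 2, 3 and Het 3; up to 0.149), Il33 (WT 1; 0.0902) and Plet1 (WT 1; 0.0723) were lost without the embryos in brackets, where the limma adjusted p is given.

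The Myc probe set fell in transformed cells. Myc on chromosome 15 read 8.63, 9.49 and 9.31 in transformed cells of embryos 1 to 3, against 11.26, 10.80 and 11.11 in untransformed cells. All transformed values lay below all untransformed ones, and transformed cells had 26.6% of the untransformed signal (log2 change -1.91 ± 0.27, limma adjusted p = 0.00639). The array reads mouse transcript sequence, and whether its probes read the introduced Ras and Myc was not tested. Of the 7 Ras and Myc genes measured, 2 fell and 0 rose, with a median of -0.54: Rras2, an R-Ras relative, read 9.95, 10.10 and 10.90 in transformed and 11.30, 10.92 and 11.14 in untransformed cells (change -0.81, adjusted p = 0.0412). The 5 that did not pass were Rras (-1.04), Mras (-0.54), Mycl (-0.38), Mycn (-0.29) and Nras (-0.14). The call of Rras2 (WT 1, 2 and Het 1, 2, 3; up to 0.173) was lost without the embryos in brackets, where the limma adjusted p is given.

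Among 11 partners and competitors of MYC in the MAX network, 1 rose (9.09%, against 5.59% of all genes) and 0 fell, with a median of 0.09. Mxi1, a MAX-binding repressor that opposes MYC, read 9.51, 9.50 and 9.18 in transformed and 8.14, 8.25 and 8.21 in untransformed cells, with no overlap. It rose 2.29-fold (log2 change 1.19 ± 0.10, adjusted p = 0.00115). Max itself changed by 0.04 and Mnt by 0.08, and neither passed.

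Genes of nucleotide synthesis, a process known to follow MYC, rose in part. Among 22 genes of nucleotide and folate synthesis 7 rose and 0 fell, with a median of 0.25. Prps2, a phosphoribosyl pyrophosphate synthetase that feeds purine and pyrimidine synthesis, read 10.55, 10.42 and 10.28 in transformed and 9.54, 9.35 and 9.23 in untransformed cells. The groups were well separated, and it rose 2.06-fold (log2 change 1.04 ± 0.09, limma adjusted p = 0.00115). The folate enzyme Mthfd1 rose by 0.73 and the purine enzyme Adsl by 0.61, and these calls also held without each embryo. Shmt1, Cad, Ppat and Prps1 rose by 0.98, 0.57, 0.55 and 0.54. The ribonucleotide reductase genes Rrm1 (-0.33) and Rrm2 (-0.14) and the mitochondrial folate gene Mthfd2 (-0.49) did not pass. The count was 4 with WT embryo 1 left out, 3 with embryo 2 and 9 with embryo 3 left out. Calls of Shmt1 (WT 2; 0.0551), Cad (WT 1, 2 and Het 1, 2, 3; up to 0.187), Ppat (WT 1, 2 and Het 1, 2, 3; up to 0.0827) and Prps1 (WT 1, 2; up to 0.104) were lost without the embryos in brackets, where the limma adjusted p is given.

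Ribosome biogenesis genes had small changes, mostly above 0, that differed by embryo. Of 45 measured, 2 rose and 0 fell, with a median of 0.20. The mean change was above 0 in 41 of the 45, against 10131 of all 19661 genes, though genes are not independent replicates. In Het cells 5 rose and 0 fell, with a median of 0.29, and the WT polysomal median was 0.37. The list medians were 0.30 in embryo 1, 0.46 in embryo 2 and -0.09 in embryo 3. Ddx18, a nucleolar helicase, read 11.64, 11.36 and 11.25 in transformed and 11.08, 10.83 and 10.93 in untransformed cells (change 0.47, adjusted p = 0.0107), and Bop1, which acts in large subunit assembly, changed by 0.30 (adjusted p = 0.0302). The count was 0 with WT embryo 1 left out, 0 with embryo 2 and 14 with embryo 3 left out. Polr1b, a subunit of RNA polymerase I, had the largest value of the list (0.79) and did not pass, nor did nucleolin, Ncl (0.16), or nucleophosmin, Npm1 (0.19). Among 6 polyamine genes 0 were called (limma; 0 also without each WT embryo), with a median of 0.37, Odc1 at 0.35 and Smox at 0.41. Of those 6, 3 had an unadjusted p under 0.05. Calls of Ddx18 (WT 1, 2; up to 0.0703) and Bop1 (WT 1, 2, 3 and Het 1, 3; up to 0.133) were lost without the embryos in brackets, where the limma adjusted p is given.

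Genes of RAS-ERK output moved both ways: 8 of 35 rose and 6 fell, with a median of 0.11. The rises included Ets factors and feedback genes. Etv1, an Ets factor on chromosome 12, read 9.42, 10.45 and 9.91 in transformed and 7.69, 8.34 and 7.25 in untransformed cells, with no overlap. It rose 4.48-fold (log2 change 2.16 ± 0.31, limma adjusted p = 0.00651). Etv4 rose by 0.63 and the AP-1 subunit Fosl1 by 0.64, both with calls that held without each embryo. Etv5 (0.79), the ERK phosphatase Dusp6 (0.71), the Spred1 and Spred2 inhibitors (0.93 and 0.73) and Ccnd1, cyclin D1 (0.73), also rose. Calls of Etv5 (WT 1, 2; up to 0.0674), Dusp6 (WT 1, 2 and Het 1, 3; up to 0.124), Spred1 (WT 1, 2; up to 0.12), Spred2 (WT 1, 2; up to 0.0816) and Ccnd1 (WT 1; 0.0587) were lost without the embryos in brackets, where the limma adjusted p is given.

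The falls in the same list included immediate early and feedback genes. Egr2, an immediate early zinc-finger factor, read 7.70, 7.75 and 8.22 in transformed and 9.74, 9.32 and 10.38 in untransformed cells, 26.3% of the untransformed signal (change -1.93 ± 0.25, adjusted p = 0.00438). The sphingosine kinase gene Sphk1 fell to 50% and the feedback inhibitor Spry1 to 59.5% of the untransformed signal. The phosphatase Dusp1 (-1.47), Fosl2 (-0.39) and Vegfa (-0.53) fell as well. Egr1 (0.55), Fos (-0.40), Spry2 (0.12) and Spry4 (0.62) did not pass. The counts were 3 higher and 3 lower without WT embryo 1, and 4 and 4 without WT embryo 2. Calls of Dusp1 (WT 1, 2; up to 0.138), Fosl2 (WT 1, 2, 3 and Het 1, 3; up to 0.166) and Vegfa (WT 1, 2, 3; up to 0.126) were lost without the embryos in brackets, where the limma adjusted p is given.

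Cell cycle genes changed by small amounts and differently by embryo. Of 41 genes of S phase 1 rose (2.44%, against 5.59% of all genes) and 0 fell, with a median of 0.10. It was Pola1, the catalytic subunit of DNA polymerase alpha, at 0.32 (limma adjusted p = 0.042). Of 43 genes of G2 and mitosis 5 rose (11.6%, against the same 5.59%) and 0 fell, with a median of 0.13. In Het cells 0 rose in either list, while 1 gene of S phase and 3 of G2 and mitosis fell. The centromere histone Cenpa rose by 0.62, the checkpoint kinase Bub1b by 0.46, Ect2 by 0.44, the condensin subunit Ncaph by 0.41 and cyclin Ccnb2 by 0.37, while the proliferation marker Mki67 (-0.31) did not pass. In embryos 1, 2 and 3 the medians were 0.04, 0.39 and -0.06 for S phase and -0.13, 0.40 and 0.09 for G2 and mitosis. Pola1 was not called without WT embryo 1 or WT embryo 2, and the G2 and mitosis count was 2 with WT embryo 1 left out, 0 with embryo 2 and 2 with embryo 3 left out. Calls of Pola1 (WT 1, 2, 3 and Het 1, 3; up to 0.179), Cenpa (WT 1, 2; up to 0.084), Bub1b (WT 1, 2 and Het 1, 2, 3; up to 0.125), Ect2 (WT 2, 3 and Het 1, 2, 3; up to 0.196), Ncaph (WT 2, 3; up to 0.132) and Ccnb2 (WT 1, 2, 3 and Het 1, 3; up to 0.169) were lost without the embryos in brackets, where the limma adjusted p is given.

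Of 20 G1 regulators 3 rose and 0 fell, with a median of 0.16. Cdkn2a, which encodes the cell cycle inhibitors p16INK4a and p19ARF, read 7.89, 8.01 and 7.82 in transformed and 7.26, 7.20 and 7.23 in untransformed cells. Each transformed culture lay above each untransformed one, and the rise was 1.6-fold (log2 change 0.68 ± 0.10, limma adjusted p = 0.0074). Ccnd1 read 11.64, 11.60 and 11.40 in transformed and 10.69, 10.996 and 10.76 in untransformed cells (change 0.73, adjusted p = 0.00933), and Rb1 changed by 0.44 (adjusted p = 0.0447). The call of Ccnd1 was lost without WT embryo 1 (adjusted p = 0.0587), that of Rb1 without WT embryo 1 (adjusted p = 0.0994), WT embryo 2 (adjusted p = 0.194), WT embryo 3 (adjusted p = 0.0743), Het embryo 1 (adjusted p = 0.0596), Het embryo 2 (adjusted p = 0.0702) or Het embryo 3 (adjusted p = 0.0507), so that 1 gene was called without WT embryo 1.

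Among 25 p53 targets 7 rose and 3 fell, with a median of 0.25. Mdm2, the ubiquitin ligase that restrains p53, read 11.90, 11.97 and 11.85 in transformed and 11.11, 11.19 and 10.81 in untransformed cells. No transformed value was below an untransformed one, and the rise was 1.82-fold (log2 change 0.87 ± 0.11, limma adjusted p = 0.00409). Trp53inp1, a p53 cofactor, rose by 0.88, the excision repair nuclease Ercc5 by 0.71 and the receptor Eda2r by 0.64, with calls that held without each embryo. Perp (1.50), Zmat3 (0.40) and Ddb2 (0.35) rose as well. Pmaip1, which encodes the pro-apoptotic protein NOXA, fell to 55.5% of the untransformed signal, and Plk2 (-0.86) and Phlda3 (-0.40) fell too. Counts were 5 higher and 1 lower without WT embryo 1, 4 and 1 without WT embryo 2, and 4 and 3 without WT embryo 3. Of 14 BCL2 family genes 2 fell, Pmaip1 and Bok (-0.40), and 0 rose, with a median of -0.12; without WT embryo 1 only Pmaip1 of this family was called. Calls of Perp (WT 2, 3 and Het 1, 2, 3; up to 0.137), Zmat3 (WT 1, 2, 3; up to 0.112), Ddb2 (WT 1, 2, 3 and Het 1, 2, 3; up to 0.151), Plk2 (WT 1, 2; up to 0.104), Phlda3 (WT 1, 2 and Het 3; up to 0.156) and Bok (WT 1, 3 and Het 1, 2, 3; up to 0.181) were lost without the embryos in brackets, where the limma adjusted p is given.

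Among 16 genes of eIF4F and its regulators 4 rose and 0 fell, with a median of 0.14. Pdcd4, an inhibitor of the eIF4A helicase, read 10.10, 10.01 and 10.12 in transformed and 8.77, 9.41 and 9.34 in untransformed cells. It rose 1.87-fold, with no overlap (log2 change 0.91 ± 0.13, limma adjusted p = 0.00714). Eif4e, the gene whose dose the study varied, read 9.80, 9.67 and 9.40 in transformed and 9.21, 9.05 and 9.03 in untransformed WT cells, a change of 0.53 ± 0.11 (adjusted p = 0.0216). Another Eif4e probe set changed by 0.10. The poly(A)-binding protein gene Pabpc1 (0.36) and its interactor Paip2 (0.36) also passed, while Eif4ebp1, the eIF4E inhibitor 4E-BP1, was at 0.00 and its relative Eif4ebp2 at 0.18, which did not pass. Only Pdcd4 of the list was called with embryo 1 or embryo 2 of WT left out, and 2 genes were with embryo 3 left out. Calls of Eif4e (WT 1, 2; up to 0.114), Pabpc1 (WT 1, 2, 3; up to 0.0774) and Paip2 (WT 1, 2, 3; up to 0.0867) were lost without the embryos in brackets, where the limma adjusted p is given.

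Most contractile genes and targets of SRF fell. Of 33 measured, 28 fell and 0 rose, against 6.86% of all genes that fell, and the median change was -0.97, against 0.01 over all genes. Myl9, the regulatory light chain of nonmuscle and smooth muscle myosin on chromosome 2, read 7.16, 7.63 and 8.33 in transformed cells of embryos 1 to 3, against 12.60, 12.54 and 12.61 in untransformed cells. The untransformed cultures were nearly equal, and every transformed culture was far below them. Its change was -4.88 ± 0.34 (SE, limma adjusted p = 6.07e-04), leaving 3.4% of the signal. Cnn1, the actin-binding protein calponin, read 6.47, 6.68 and 7.55 in transformed and 11.31, 11.19 and 11.30 in untransformed cells (-4.37 ± 0.26, adjusted p = 3.73e-04). Tagln, transgelin, read 7.24, 7.91 and 8.12 in transformed and 12.001, 11.89 and 12.01 in untransformed cells (-4.21 ± 0.30, adjusted p = 6.17e-04). For both genes embryo 3 had the highest transformed value and still lay far below the untransformed range.

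The smooth muscle actins Actg2 and Acta2 fell by 4.30 and 3.46 on the log2 scale, and the LIM protein Fhl1 by 3.81. Smaller falls were in myosin heavy chains (Myh11 -1.64, Myh10 -0.77 and Myh9 -0.79), tropomyosins (Tpm2 -1.43, Tpm1 -0.63 and Tpm4 -0.43), actin crosslinkers (Actn1 -1.37, Actn4 -0.81 and Flna -1.19) and the adhesion protein vinculin (Vcl -1.26). Srf itself fell by 0.60 (adjusted p = 0.0039), while its coactivator gene Mrtfa (-0.24) and Ankrd1, Csrp2, Smtn and Mylk (-1.45, -0.78, -0.19 and -0.08) did not pass. The count of falls was 23 with WT embryo 1 left out, 24 with embryo 2 and 28 with embryo 3 left out, and 23 were called without each of the 6 embryos. The list median in embryos 1, 2 and 3 was -1.26, -0.97 and -0.79. Calls of Myh9 (WT 1, 2; up to 0.0822) and Tpm4 (WT 1, 2 and Het 1; up to 0.17) were lost without the embryos in brackets, where the limma adjusted p is given.

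SRF binds the CArG box, and the promoters of these genes were searched for it. RefSeq promoters (build GRCm38.p6, the 250 bases before each gene's start, both strands) were found for 15401 of the genes. A CArG box was present in 6 of the 29 contractile genes with a promoter (20.7%), in 3.24% of the genes called lower, in 1.03% of those called higher and in 1.45% of all. The contractile list was chosen to hold SRF targets, so its share of CArG boxes is not independent of that choice. The 34 genes called lower with a box include the 6 of this list, so the 3.24% is not separate from it. The box was found in Myl9, Fhl1, Cnn2, Vcl, Fhl2 and Srf, and Srf held a pair of them. All of these genes fell, as did 28 of the 33 list members measured. The boxes read CCTAATAAGG in Myl9, CCTAAAATGG in Fhl1, CCTTATAAGG in both Cnn2 and Vcl, CCTTATATGG in Fhl2, and CCATATAAGG and CCATAAAAGG in Srf. The windows of the pair with the largest falls are shown because the motif stands there beside a large fall, at chr2:156775214-156775463 for Myl9 and chrX:56779433-56779682 for Fhl1, both on the plus strand, with the box in capitals.
Myl9: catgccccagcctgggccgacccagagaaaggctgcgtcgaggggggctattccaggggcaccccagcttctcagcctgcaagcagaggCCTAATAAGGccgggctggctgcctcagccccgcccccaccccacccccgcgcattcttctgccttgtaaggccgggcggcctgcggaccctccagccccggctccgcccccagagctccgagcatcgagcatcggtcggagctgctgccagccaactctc
Fhl1: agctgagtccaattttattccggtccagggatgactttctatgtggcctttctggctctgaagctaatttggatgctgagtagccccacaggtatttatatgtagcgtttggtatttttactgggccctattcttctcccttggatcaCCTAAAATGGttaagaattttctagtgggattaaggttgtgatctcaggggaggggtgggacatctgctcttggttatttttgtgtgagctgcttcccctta
The Myl9 box began 161 bases and the Fhl1 box 102 bases before the gene's start. No test was made of these shares, and a match is a description of letters and not a bound site.

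The same windows were searched for 2 more motifs. The MYC E-box CACGTG was in 9.34% of promoters of genes called higher, in 9.81% of genes called lower and in 8.08% of all, and in 3 of 40 ribosome biogenesis promoters (7.5%). The AP-1 motif TGANTCA was in 7.29% of genes called higher, 6.67% of genes called lower and 7.16% of all. These motifs read the same on both strands, and the last CA of TGANTCA can be the first CA of CACGTG.

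Matrix genes fell widely. Of 52 matrix glycoproteins and crosslinkers 27 fell and 0 rose, with a median of -0.88. Lox, lysyl oxidase, which crosslinks collagen and elastin, read 6.82, 8.48 and 9.52 in transformed cells of embryos 1 to 3, against 11.46, 11.62 and 11.59 in untransformed cells. The untransformed cultures were nearly equal, and the transformed cultures spread from very low in embryo 1 to moderately low in embryo 3 without reaching them. The change was -3.28 ± 0.44 (SE, limma adjusted p = 0.00521). Fbln5, the elastic fibre protein fibulin-5, fell by 3.61, the prolyl hydroxylase subunit P4ha3 by 3.09, the YAP and SRF target Ccn2 by 2.67, and Fbln2 by 2.59. Thrombospondins Thbs1 (-2.23) and Thbs2 (-1.72), tenascin Tnc (-1.96), biglycan Bgn (-2.14) and fibronectin Fn1 (-0.62) fell as well. Small proteoglycans did not all follow: decorin, Dcn, was at -0.02 and lumican, Lum, at 2.05, neither of which passed. The count of falls was 14 with WT embryo 1 left out, 14 with embryo 2 and 33 with embryo 3 left out. The call of Fn1 (WT 1, 2; up to 0.0605) was lost without the embryos in brackets, where the limma adjusted p is given.

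Of 41 collagen chains 14 fell and 1 rose, with a median of -0.20. Col1a2, a chain of the main fibrillar collagen, read 8.15, 8.94 and 9.31 in transformed and 10.70, 11.15 and 11.04 in untransformed cells, 22.3% of the signal (change -2.16 ± 0.23, limma adjusted p = 0.00236). Its partner chain Col1a1 fell by 1.64, the network collagen Col8a1 by 2.60, and the basement membrane pair Col4a1 and Col4a2 by 1.08 and 1.06. Col12a1 read 6.75, 9.23 and 9.08 in transformed and 11.57, 11.63 and 11.73 in untransformed cells and was not called without WT embryo 1 (adjusted p = 0.0583). The chain that passed upwards was Col18a1 (0.40), whose call did not hold in the fit without WT embryo 1 (adjusted p = 0.138) or WT embryo 2 (adjusted p = 0.108). Col3a1 (-0.31) did not pass. The count of falls was 7 without WT embryo 1 and 8 without WT embryo 2.

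Of 31 matrix proteases and their inhibitors 12 fell and 1 rose, with a median of -0.55. Timp3, an inhibitor of metalloproteases, read 7.65, 9.18 and 8.99 in transformed and 12.44, 12.13 and 12.22 in untransformed cells, 7.91% of the signal (change -3.66 ± 0.33, limma adjusted p = 0.00146). The metalloproteases Adam12 (-2.85), Mmp16 (-1.77) and Adamts12 (-1.62) and the collagen-degrading cathepsin Ctsk (-2.23) fell too. Plau, the urokinase plasminogen activator, was the member that rose: it read 11.14, 12.11 and 10.89 in transformed and 10.09, 10.31 and 10.09 in untransformed cells, 2.33-fold higher with no overlap (adjusted p = 0.00683). Mmp3 (1.36) and Mmp10 (0.75) did not pass. Without WT embryo 1 there were 8 falls.

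Adhesion receptors split into a larger set that fell and a smaller one that rose, 13 and 4 of 33, with a median of -0.40. Cdh11, the cadherin of mesenchymal cells, read 7.38, 9.58 and 9.68 in transformed and 12.42, 12.29 and 12.44 in untransformed cells (-3.50 ± 0.51, limma adjusted p = 0.00669). The transformed culture of embryo 1 was the lowest by a wide margin, and the groups did not overlap. The collagen-binding integrins Itga11 and Itga1 fell by 3.06 and 2.05, Ncam1 by 2.81, and the fibronectin receptor subunit Itga5 by 1.13. The collagen-binding Itga2 (0.39) and Itga10 (0.18) did not pass. Among laminin-binding integrins, Itga7 (-0.32) did not pass and Itga3 and Itga6 rose. Itga3 read 8.75, 9.50 and 9.49 in transformed and 7.80, 7.90 and 7.80 in untransformed cells (2.67-fold, adjusted p = 0.0039), and Itga6 read 11.28, 11.32 and 11.40 and 10.23, 9.52 and 10.11 (2.6-fold, adjusted p = 0.00818). Cadm1, an immunoglobulin-type adhesion molecule, rose 2.83-fold, and Itgb7 rose by 1.62 but was not called without WT embryo 2 (adjusted p = 0.0593).

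Of 40 genes of the TGF-beta and BMP pathway 17 fell and 1 rose, with a median of -0.48. Among ligands, Tgfb3 read 7.80, 8.33 and 8.57 in transformed and 10.71, 10.69 and 11.06 in untransformed cells (16.6% of the signal, change -2.59 ± 0.19, limma adjusted p = 6.97e-04), Tgfb2 fell to 16.7%, and Inhba, an activin subunit, changed by -2.46. Among receptors, Bmpr1b read 6.58, 6.24 and 6.75 in transformed and 9.13, 8.84 and 9.08 in untransformed cells (-2.50 ± 0.10, adjusted p = 8.93e-05), with tight values in both states, and Tgfbr1 fell by 0.68. Among targets and inhibitors, Id3, Id4 and Smad7 fell by 1.20, 1.43 and 1.03, and the latent binding protein Ltbp2 fell by 2.34. The ligand Bmp2, given above, was the member that rose. Smad2, Smad3 and Smad4, the signal carriers, were at -0.12, -0.36 and 0.01 and did not pass. Without WT embryo 1 there were 10 falls, and Bmp2 was not called without WT embryo 1 (adjusted p = 0.0547), WT embryo 2 (adjusted p = 0.149), WT embryo 3 (adjusted p = 0.068) or Het embryo 3 (adjusted p = 0.0696). The call of Inhba (WT 1, 3; up to 0.0868) was lost without the embryos in brackets, where the limma adjusted p is given.

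Growth factors and their receptors fell in 14 of 37 and rose in 2, with a median of -0.54. Igf2, the fetal insulin-like growth factor on chromosome 7, read 7.35, 7.36 and 7.78 in transformed and 10.30, 10.79 and 10.61 in untransformed cells. Transformed cells kept 11.9% of the signal with no overlap (change -3.07 ± 0.23, limma adjusted p = 7.84e-04). The receptors Pdgfrb (-2.61), Fgfr2 (-1.71) and Egfr (-1.53) fell, as did Igf1 (-1.74), Vegfc (-1.45) and the binding proteins Igfbp5 (-1.86) and Igfbp7 (-2.38). Met, the receptor of hepatocyte growth factor, read 9.70, 10.58 and 10.42 in transformed and 9.51, 9.11 and 8.96 in untransformed cells (1.04, adjusted p = 0.0317), and its ligand gene Hgf fell by 1.69. Angpt2 rose by 0.61. The counts were 8 falls without WT embryo 1, and 1 rise with either embryo 2 or embryo 3 left out. Calls of Met (WT 2, 3 and Het 1, 2, 3; up to 0.152), Hgf (WT 1, 2; up to 0.155) and Angpt2 (WT 1; 0.0629) were lost without the embryos in brackets, where the limma adjusted p is given.

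Chemokine and cytokine genes fell in 6 of 30 and rose in 1, with a median of -0.15. Cxcl12, the stromal chemokine that binds CXCR4, read 6.87, 6.92 and 8.31 in transformed and 10.46, 10.86 and 10.28 in untransformed cells (11.1% of the signal, change -3.17 ± 0.45, limma adjusted p = 0.00609). Il6 read 4.61, 4.66 and 7.09 in transformed and 8.79, 8.20 and 8.74 in untransformed cells (-3.13 ± 0.45, adjusted p = 0.0066). In both genes the transformed culture of embryo 3 was the highest of its group and lay below the untransformed range. Cxcl14 fell to 37.3% of the signal. Csf1 (-1.03), Cxcl16 (-0.76) and Il11 (-0.53) fell too, and Il33 was the member that rose; the count of falls was 4 without WT embryo 1, and 2 members rose without WT embryo 2. Calls of Csf1 (WT 2, 3 and Het 1, 2, 3; up to 0.138), Cxcl16 (WT 1, 2; up to 0.114) and Il11 (WT 1, 3; up to 0.082) were lost without the embryos in brackets, where the limma adjusted p is given.

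Of 25 genes of glycolysis and the hypoxia response 4 rose and 0 fell, with a median of 0.15. Pdk1, which encodes a pyruvate dehydrogenase kinase, read 9.46, 9.55 and 8.56 in transformed and 6.76, 7.93 and 7.29 in untransformed cells (3.65-fold, log2 change 1.87 ± 0.24, limma adjusted p = 0.00442). The lactate transporter Slc16a1 rose 2.45-fold and the oxygen sensor Egln3 3.02-fold, both with no overlap. Pfkm rose by 0.65. The glycolytic enzymes Hk2 (0.10), Ldha (0.12) and Pkm (0.09) and the glucose transporter Slc2a1 (0.23) did not pass. The call of Pfkm (WT 1 and Het 3; up to 0.0614) was lost without the embryos in brackets, where the limma adjusted p is given.

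Amino acid, lipid, redox and interferon genes gave few calls. Of 29 ATF4 and amino acid genes 1 rose and 3 fell, with a median of -0.15; Glul, glutamine synthetase, read 9.84, 10.23 and 10.71 in transformed and 8.85, 8.84 and 8.98 in untransformed cells (2.58-fold, limma adjusted p = 0.0018). The transporters Slc7a3 (-1.49), Slc1a4 (-0.83) and Slc7a1 (-0.36) fell, and 0 falls were called without WT embryo 1 or WT embryo 2. Of 30 redox genes 4 rose and 3 fell, with a median of -0.02: Nfe2l2, which encodes NRF2, rose by 0.43 with a call that held without each embryo, and Srxn1 (0.66), Gstp1 (0.58) and Gsr (0.56) also rose. Gsta4 (-2.13), Gpx3 (-1.76) and Gpx7 (-1.19) fell, with 0 falls called without WT embryo 1 or WT embryo 2, and 2 rises without WT embryo 2 or WT embryo 3. Of 29 interferon response genes only Rnf213, a large ubiquitin ligase, was called (9.32, 9.09 and 9.37 in transformed, 8.22, 8.41 and 8.35 in untransformed cells, 1.91-fold), with 2 called without WT embryo 2. Of 25 genes of cholesterol and fatty acid synthesis 0 were called by limma, also without each WT embryo, and 1 had an unadjusted p under 0.05; the list medians were -0.45, -0.12 and 0.16 in embryos 1, 2 and 3. Calls of Slc7a3 (WT 1, 2, 3 and Het 1, 2; up to 0.134), Slc1a4 (WT 1, 2; up to 0.0939), Slc7a1 (WT 1, 2, 3 and Het 1; up to 0.175), Srxn1 (WT 2, 3; up to 0.089), Gstp1 (WT 1, 3; up to 0.121), Gsr (WT 2; 0.0633), Gsta4 (WT 1, 2; up to 0.0522), Gpx3 (WT 1, 2; up to 0.0604) and Gpx7 (WT 1, 2; up to 0.107) were lost without the embryos in brackets, where the limma adjusted p is given.

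Imprinted genes, expressed from 1 parental allele and many of them regulators of fetal growth, fell in 6 of 18 and rose in 1, with a median of -0.77. Besides Igf2, Meg3 and Rian, noncoding RNAs of the Dlk1-Meg3 cluster on chromosome 12, fell. Meg3 read 7.37, 9.79 and 9.08 in transformed and 10.65, 11.38 and 11.30 in untransformed cells (-2.36 ± 0.29, limma adjusted p = 0.00374). Rian read 5.95, 9.34 and 9.07 in transformed and 10.85, 11.26 and 11.27 in untransformed cells (-3.01 ± 0.58, adjusted p = 0.0177). Both were lowest in the transformed culture of embryo 1. Dlk1 of the same cluster was at 0.28 and did not pass. Zim1 (-1.60), Plagl1 (-1.36) and Grb10 (-0.92) fell, and Phlda2 rose by 0.48 and was not called without WT embryo 2 (adjusted p = 0.169), WT embryo 3 (adjusted p = 0.108), Het embryo 1 (adjusted p = 0.0666) or Het embryo 3 (adjusted p = 0.0562). The call of Zim1 (WT 1; 0.0518) was lost without the embryos in brackets, where the limma adjusted p is given.

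Hox genes, which record position along the body, gave 4 falls (10.8%, against 6.86% of all genes) and 0 rises among 37, with a median of -0.11, and 1 fall was called without each of the 6 embryos. Hoxc8 read 8.96, 8.97 and 8.04 in transformed and 10.08, 9.76 and 9.60 in untransformed cells (44.8% of the signal, limma adjusted p = 0.00371). Hoxc5 (-0.75), Hoxd11 (-0.55) and Hoxc13 (-0.41) fell as well. Hoxd11 and Hoxc13 lay below 7.26, the median of all total RNA values, in all 6 cultures. Without WT embryo 2, 1 gene was called lower, and without WT embryo 3, 1 was called higher. Calls of Hoxc5 (WT 2, 3 and Het 3; up to 0.107), Hoxd11 (WT 2; 0.0532) and Hoxc13 (WT 1, 2, 3 and Het 1; up to 0.135) were lost without the embryos in brackets, where the limma adjusted p is given.

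**Figure D2:**
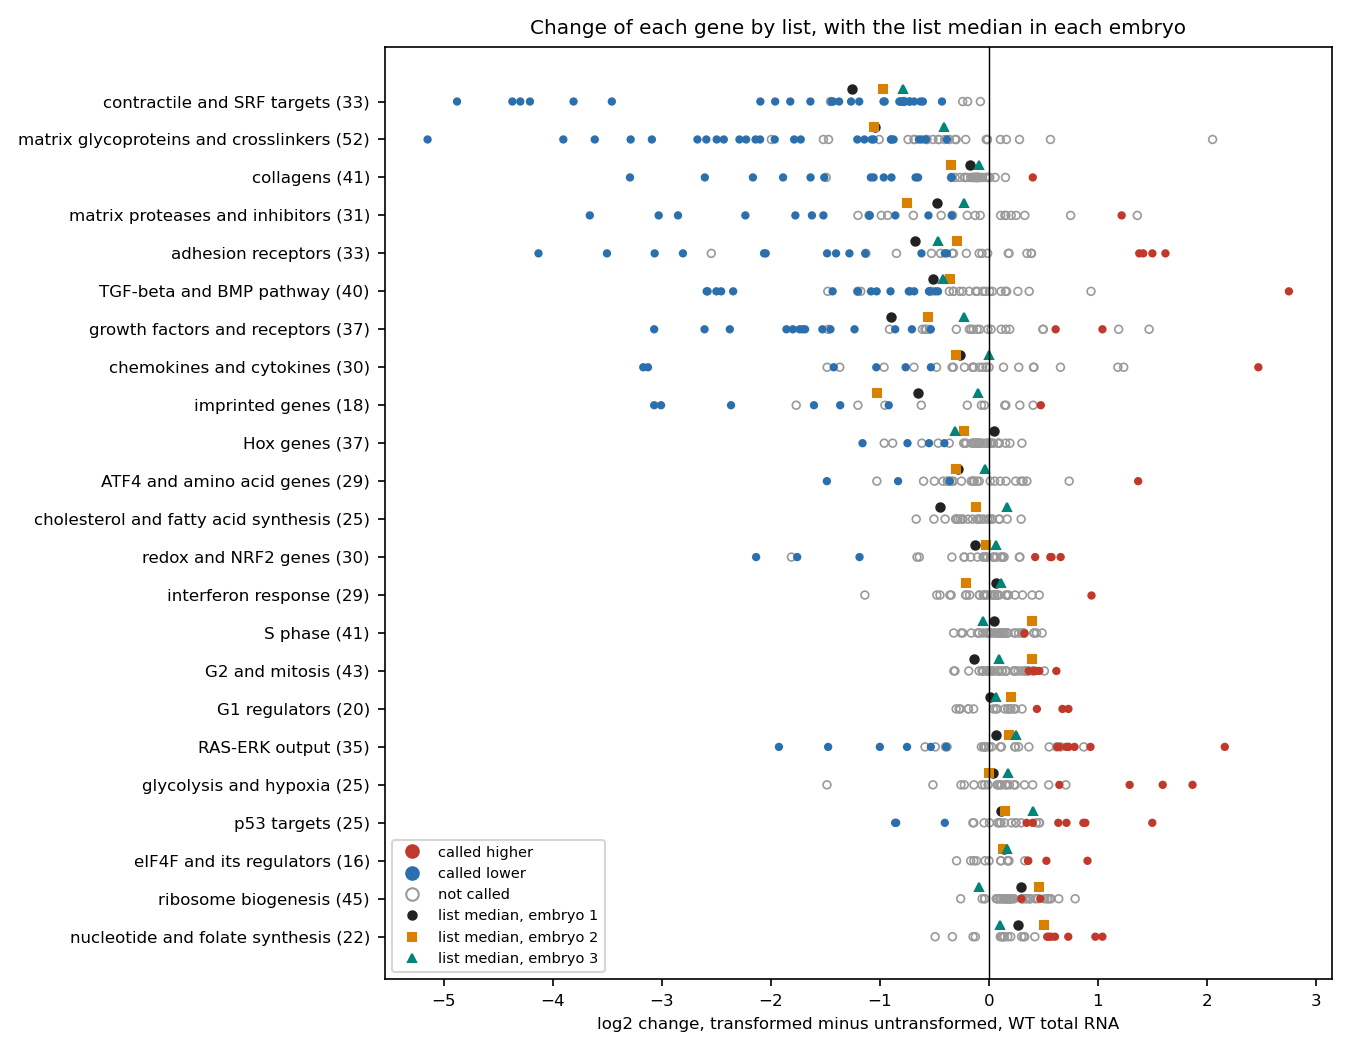
Log2 change, transformed minus untransformed, in WT total RNA (horizontal axis) for each gene of 23 lists (rows, with the number of genes measured), coloured by the limma call, with the list median in each embryo marked above the row. The contractile list has 28 of 33 genes called lower, while the ribosome biogenesis medians are 0.30 and 0.46 in embryos 1 and 2 and -0.09 in embryo 3.

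The label of embryonic fibroblasts was checked against markers of fibroblasts and of other cell types. In untransformed WT cells 18 of 24 fibroblast markers were above the median of all total RNA values (log2 7.26) in all 3 cultures, and 13 were in the 3 transformed cultures. The mean level of the list was 8.14, 9.03 and 9.18 in transformed and 9.36, 9.49 and 9.37 in untransformed cells of embryos 1, 2 and 3, so the transformed culture of embryo 1 was the lowest. Of the 24, 11 fell and 1 rose, with a median of -0.32. Thy1, a surface glycoprotein of fibroblasts, read 7.20, 9.05 and 9.06 in transformed and 12.21, 11.85 and 11.84 in untransformed cells (-3.53 ± 0.57, limma adjusted p = 0.00944). The mesenchymal regulators Snai2 (-1.45), Prrx1 (-0.73) and Zeb2 (-0.54) fell, whereas Twist1 (0.11) and vimentin, Vim (-0.03), did not pass. The counts of falls were 8, 8 and 9 without WT embryos 1, 2 and 3. Calls of Prrx1 (WT 1, 3 and Het 1, 2, 3; up to 0.208) and Zeb2 (WT 2, 3; up to 0.13) were lost without the embryos in brackets, where the limma adjusted p is given.

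Macrophage markers fell in 10 of 17 and rose in 1, with a median of -0.61. Lyz2, the lysozyme of macrophages, read 6.33, 5.35 and 5.81 in transformed and 9.76, 10.50 and 9.65 in untransformed cells (5.69% of the signal, change -4.14 ± 0.32, limma adjusted p = 8.94e-04). The cathepsin Ctss read 6.41, 6.26 and 6.23 in transformed and 8.74, 8.60 and 8.43 in untransformed cells (-2.29 ± 0.08, adjusted p = 7.64e-05). Both were uniformly low after transformation and clearly present before it. The adaptor Tyrobp (-1.42), Ms4a7 (-1.34), the macrophage surface marker Adgre1 (-1.30), Fcer1g (-1.11) and the leukocyte marker Ptprc (-0.72) fell too. Cd14 rose by 0.84 and was not called without WT embryo 1 (adjusted p = 0.0624), WT embryo 2 (adjusted p = 0.138), WT embryo 3 (adjusted p = 0.0601) or Het embryo 3 (adjusted p = 0.0572). The mean level of the list was 6.63, 6.76 and 6.76 in transformed and 7.48, 7.49 and 7.35 in untransformed cells, and 7 of 17 markers were at or below the median of all values in all 6 cultures. In cultures of mixed cells, fewer cells of a type and less RNA per cell cannot be told apart.

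Neural markers fell in 4 of 19 and rose in 1, with a list mean of 7.03, 7.18 and 7.02 in transformed and 7.51, 7.35 and 7.38 in untransformed cells. Stmn2 read 6.34, 6.84 and 6.41 in transformed and 10.32, 9.79 and 9.46 in untransformed cells (-3.33 ± 0.31, limma adjusted p = 0.00159), the neuronal tubulin gene Tubb3 fell by 2.64 and the glial progenitor gene Fabp7 by 2.49. Map2 (-0.35) fell as well. The stem cell factor Sox2 moved the other way, with 8.63, 10.00 and 7.49 in transformed and 6.85, 6.47 and 6.66 in untransformed cells (2.05, adjusted p = 0.0259). Sox1, Pax6, Olig2, Sox10 and Neurod1, at -0.10, -0.10, -0.14, -0.13 and -0.09, did not pass. Calls of Map2 (WT 1, 2, 3 and Het 1, 2, 3; up to 0.183) and Sox2 (WT 1; 0.0979) were lost without the embryos in brackets, where the limma adjusted p is given.

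Endothelial markers fell in 3 of 15 and rose in 1, with list means of 6.83, 6.92 and 6.84 in transformed and 7.22, 7.08 and 7.13 in untransformed cells. Emcn, endomucin, read 5.99, 6.07 and 5.90 in transformed and 8.85, 8.65 and 8.46 in untransformed cells (-2.67 ± 0.09, limma adjusted p = 6.33e-05), and the VEGF receptors Flt1 and Kdr fell by 2.05 and 0.59. Kdr lay below the median of all values in all 6 cultures. The endothelial cadherin Cdh5 rose by 0.75 and was not called without WT embryo 2 (adjusted p = 0.122), WT embryo 3 (adjusted p = 0.0725), Het embryo 1 (adjusted p = 0.0589), Het embryo 2 (adjusted p = 0.0563) or Het embryo 3 (adjusted p = 0.0747), while Pecam1 (-0.05) and Tie1 (-0.01) did not pass. Of 19 muscle markers 4 fell, Acta1 (-2.21), Tnnt2 (-1.01), Des (-0.73) and Actc1 (-0.60), and 0 rose, and the myogenic factors Myod1 (0.08) and Myog (-0.13) did not pass. Of 12 cartilage markers 2 fell, Col11a1 (-1.51) and Col2a1 (-0.34); of 9 adipocyte markers Cd36 fell (-2.48) and Fabp4 passed upwards (1.98, not called without WT embryo 1 (adjusted p = 0.0656), WT embryo 2 (adjusted p = 0.0782), WT embryo 3 (adjusted p = 0.0694) or Het embryo 1 (adjusted p = 0.0575)). Without WT embryo 1 the counts of falls were 2 for muscle and 1 for cartilage. The means over muscle markers were 7.28, 7.31 and 7.24 in transformed and 7.44, 7.38 and 7.42 in untransformed cells, over cartilage markers 7.04, 7.07 and 6.97 and 7.28, 7.40 and 7.31, and over adipocyte markers 6.88, 6.86 and 7.15 and 7.11, 7.28 and 7.08. Calls of Tnnt2 (WT 1, 3 and Het 1, 3; up to 0.171), Actc1 (WT 1, 2; up to 0.0782) and Col2a1 (WT 1, 2, 3; up to 0.112) were lost without the embryos in brackets, where the limma adjusted p is given.

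Epithelial and erythroid markers gave 0 calls in limma among 14 and 5 genes, with 2 epithelial genes called higher without WT embryo 1 and 3 epithelial and 1 erythroid genes at an unadjusted p under 0.05. Epithelial means were 7.07, 7.37 and 7.54 in transformed and 7.22, 7.10 and 7.10 in untransformed cells, and erythroid means 6.83, 6.63 and 6.68 and 6.67, 6.64 and 6.55. Keratin 18, Krt18, was at 1.55 and the epithelial adhesion gene Epcam at 0.33. Many markers were at or below the median of all values in all 6 cultures. These were 7 of 19 neural, 8 of 15 endothelial, 6 of 19 muscle and 6 of 12 cartilage markers. The same held for 3 of 9 adipocyte, 8 of 14 epithelial and 3 of 5 erythroid markers, against 2 of 24 fibroblast markers. The part of these other cell types in the changes of the lists above was not tested.

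**Figure D3:**
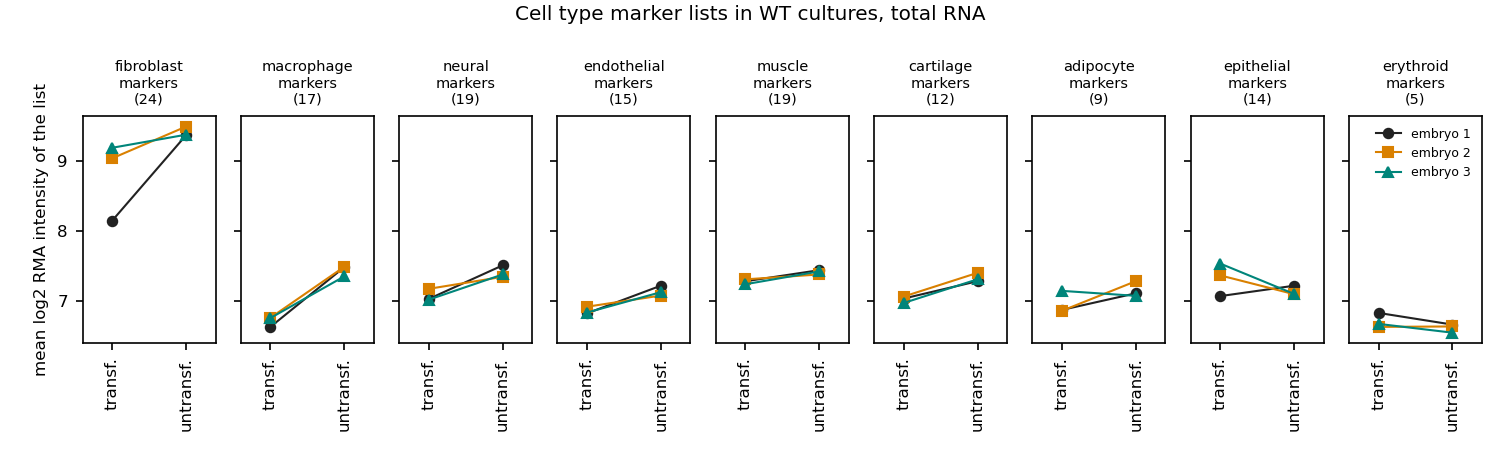
Mean log2 RMA intensity (vertical axis) of 9 marker lists in the transformed (left in each panel) and untransformed (right) WT culture of each embryo, with the number of genes in brackets. The fibroblast list is highest in every culture, with its lowest mean of 8.14 in transformed cells of embryo 1, and the macrophage list lies at 6.63 to 6.76 in transformed cells and 7.35 to 7.49 in untransformed cells.

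The spread among the transformed cultures was wider than among the untransformed ones. Over all genes the median SD among 3 cultures was 0.13 in transformed and 0.09 in untransformed WT cells, and 228 against 17 genes had an SD of at least 1. In Het cells these counts were 95 in transformed and 7 in untransformed cultures. Changes of at least 1 on the log2 scale numbered 275 up and 729 down in embryo 1, 402 up and 615 down in embryo 2, and 386 up and 421 down in embryo 3. Across genes, which are not independent replicates, the change in an embryo correlated with the mean change in the other embryos at r = 0.777, 0.733 and 0.640 for embryos 1, 2 and 3.

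Some of the widest spreads were single cultures with strong expression, chosen here by their SD among genes above the 40th percentile in at least 3 arrays and given as a description. In embryo 3, the platelet chemokine gene Ppbp read 11.60 after transformation, against 9.65 before it, while the same values were 5.56 against 8.76 in embryo 1 and 7.37 against 9.25 in embryo 2. The neutrophil chemokine Cxcl5 read 5.82, 6.19 and 9.94 in transformed and 6.65, 7.01 and 7.06 in untransformed cells of embryos 1 to 3, and the aminopeptidase gene Enpep 6.36, 6.11 and 11.60 and 6.55, 7.54 and 7.08. Ly6g read 6.51, 7.14 and 11.35 in transformed and 5.46, 5.49 and 5.24 in untransformed cells. In all 4 genes the transformed culture of embryo 3 was the highest.

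In embryo 1, the secreted Wnt modulator Sfrp2 was the gene that stood out: it read 11.77, 7.97 and 6.78 in transformed and 6.76, 6.94 and 6.45 in untransformed cells. In embryo 2, the opioid precursor gene Penk read 7.04, 10.64 and 6.48 in transformed and 7.62, 7.78 and 8.40 in untransformed cells, and the urea transporter Slc14a1 7.72, 11.87 and 8.93 and 8.17, 7.82 and 7.86. The calcium channel Trpa1 was likewise highest in embryo 2, with 7.75, 10.03 and 5.80 in transformed and 5.59, 5.68 and 5.86 in untransformed cells. Decorin, Dcn, read 6.18, 10.08 and 9.89 in transformed and 8.53, 9.01 and 8.68 in untransformed cells, low in embryo 1 and higher in embryos 2 and 3. None of these genes passed the test.

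**Figure D4:**
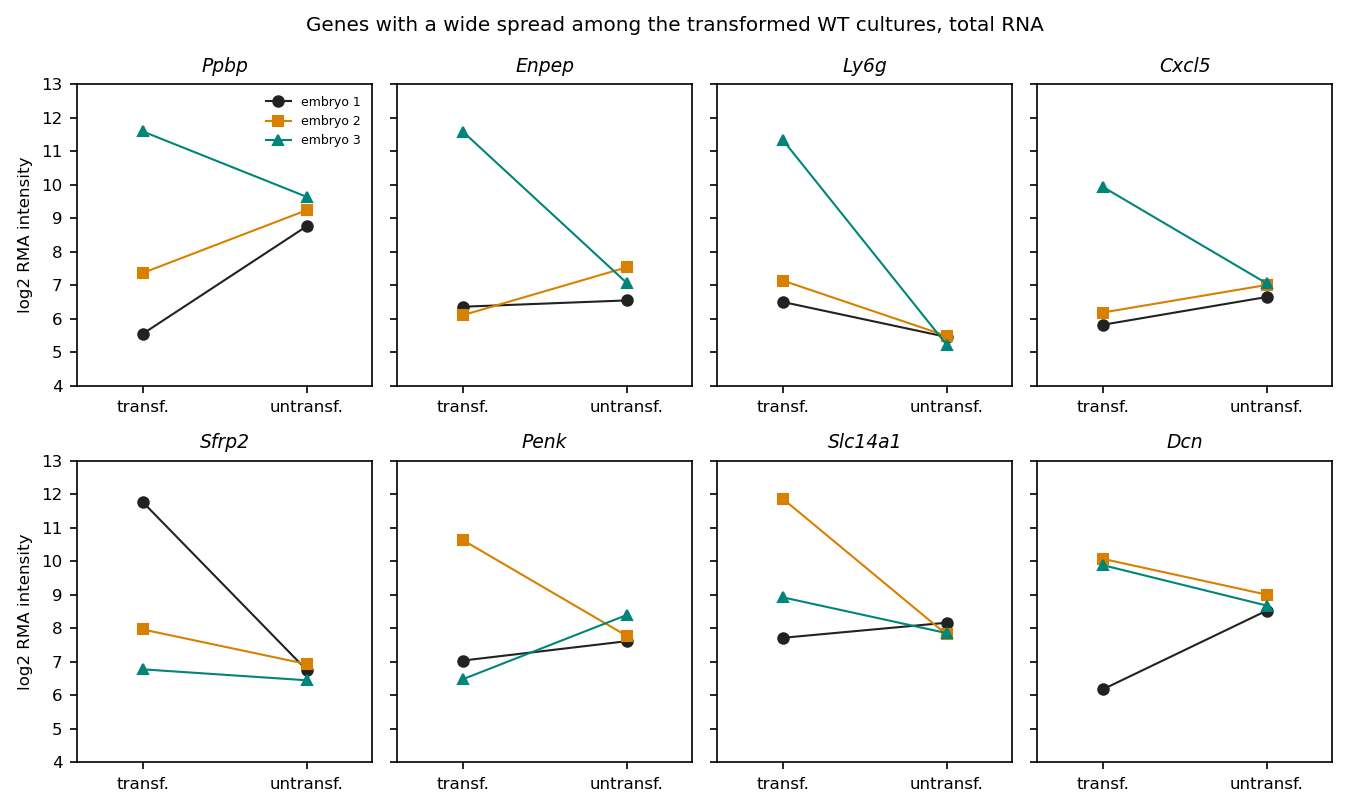
Log2 RMA intensity (vertical axis) in the transformed (left in each panel) and untransformed (right) WT culture of each embryo for 8 genes taken from those with the widest spread among transformed cultures. Ppbp, Enpep, Ly6g and Cxcl5 are highest in transformed cells of embryo 3, Sfrp2 in embryo 1, and Penk and Slc14a1 in embryo 2.

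The same contrast in Het embryos came from the same fit, whose estimate of the residual spread both genotypes share, and gave 830 rises (4.22% of genes) and 1267 falls (6.44%). Of the genes called lower in WT, 1264 of 1349 (93.7%) moved down in 3 of 3 Het embryos, as did 3942 of all 19661 genes, and of those called higher 981 of 1100 (89.2%) moved up in 3 of 3, as did 6122 of all genes (31.1%). The lists shared 931 falls, 69.0% of the WT and 73.5% of the Het falls, and 568 rises, 51.6% of the WT and 68.4% of the Het rises. No gene was called in opposite directions. Because the genes were selected on their WT values, a smaller Het change is not by itself a difference between genotypes: the median was -0.73 in WT and -0.65 in Het for genes called lower in WT, and 0.58 and 0.44 for genes called higher.

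The test of the difference itself, the WT minus the Het change, called 0 genes of 19661 in limma (0.0%), with a smallest adjusted p of 0.841 and 964 genes at an unadjusted p under 0.05. The contractile list had 28 falls in WT and 30 in Het cells, and the matrix list 27 and 19. Tagln changed by -4.21 in WT and -2.25 in Het embryos, Myl9 by -4.88 and -3.12, and Ptprz1 by -4.63 and -4.46. Myc changed by -1.91 in WT and -1.62 in Het embryos, Eif4e by 0.53 and 0.25, and Mdm2 by 0.87 and 1.05.

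The smallest unadjusted p-values for a larger change in WT were in Cadm1 (1.50 in WT, -0.02 in Het), Ly75 (-0.36 and -1.06), Pip5k1b, a phosphoinositide kinase (1.47 and 0.59), Wdr60 (1.06 and 0.37) and Egln3 (1.60 and 0.10), where larger means more positive. Those for a smaller one were in Gzme, a granzyme (-1.24 in WT, -0.14 in Het), Acer2, a ceramidase (0.00 and 1.00), Ahi1 (-0.10 and 0.74), Mmp16 (-1.77 and -0.81) and Fbn2, fibrillin-2 (0.11 and 1.84). None of the 10 passed, with limma adjusted p-values of 0.84 to 0.90.

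In polysomal RNA of the same WT cultures, a separate set of arrays on its own scale, 60 genes rose (0.305% of genes) and 135 fell (0.687%). Of the genes called lower in total RNA 1262 (93.6%) had a negative polysomal change, and of those called higher 964 (87.6%) had a positive one, against 64.3% of all genes with the same sign in both fractions. The calls shared were 126 falls and 36 rises. Myl9 changed by -4.88 in total and -5.72 in polysomal RNA (limma adjusted p = 1.33e-04 in polysomal RNA), Postn by -5.15 and -5.06 (0.00993), and Mgst2 by 2.85 and 2.98 (0.00484). Some genes with large changes in total RNA had low signal in the polysomal arrays of both states, and the reason was not tested. Mean polysomal levels were 2.53 in transformed and 3.17 in untransformed cells for Ptprz1, 3.06 and 2.93 for Mgat4a, and 2.49 and 2.39 for the noncoding RNA Rian, below the medians of these arrays (3.40 to 3.52). The difference between fractions was not tested.

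**Figure D5:**
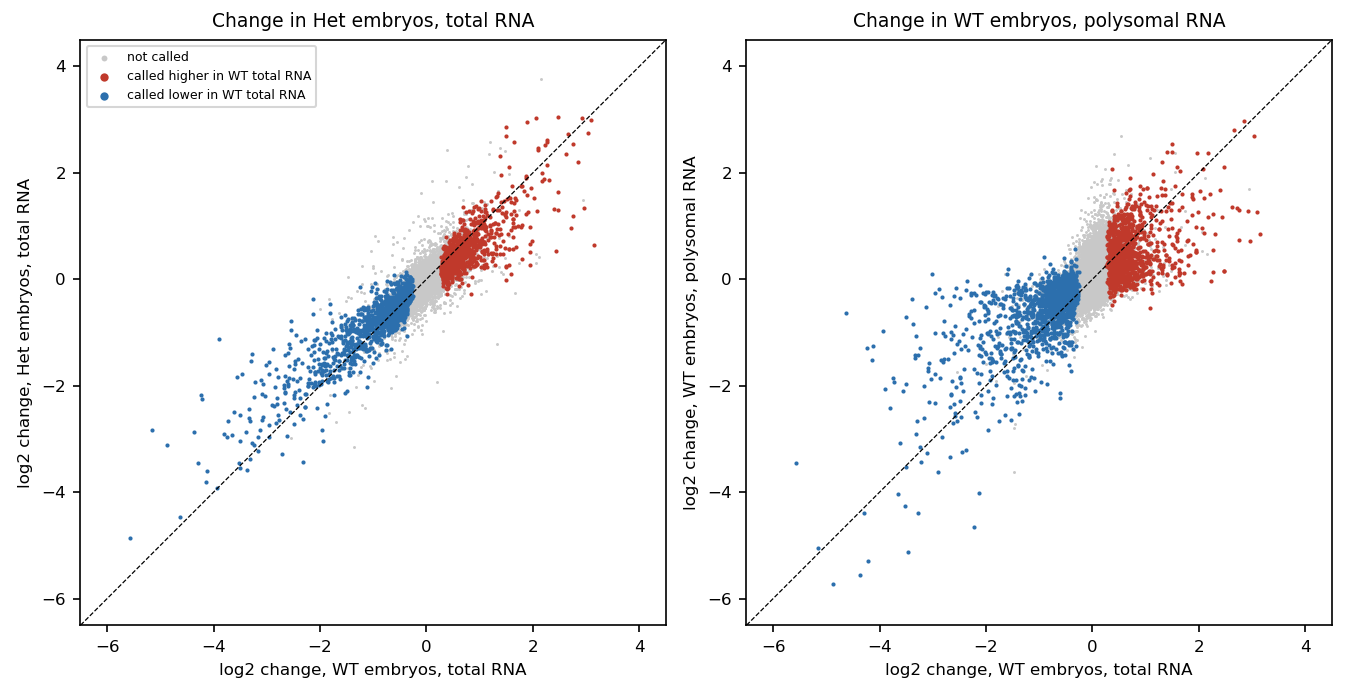
Log2 change in WT total RNA (horizontal axis) of 19661 genes against the change in Het total RNA (left panel) and in WT polysomal RNA (right panel), coloured by the limma call in WT total RNA, with a dashed line of equal change. Most genes called in WT total RNA moved the same way in Het cells, and the polysomal changes lie closer to 0 for many genes.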

How the data were processed

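Total RNA was measured in 12 fibroblast cultures from 6 embryos, 3 cultures in each of 4 groups. The deposited values were log2 intensities made by the authors with RMA, per the submitters' processing notes and the series description, and no step was added before the fits. RMA summarises and normalises probe signals, so levels are relative. The RMA version, chip definition and probe set filter are not given in the sources used here. Of 25668 probe sets, 20777 carried 1 gene symbol in the platform annotation, 232 carried several and 4659 none, and probe sets with several or none were not analysed here. Symbols were updated through gene IDs for 20696 probe sets. Of the 19661 genes, 564 had more than 1 probe set, and the brightest over 24 arrays was used, with no filter on low values.

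limma 3.58.1 in R 4.3.3 (lmFit and eBayes) was fitted to the 12 total RNA arrays with embryo as a block and 1 transformation effect per genotype, leaving 4 residual degrees of freedom. Changes are transformed minus untransformed, and the threshold was an adjusted p of 0.05 (Benjamini-Hochberg over all 19661 genes). The polysomal arrays were fitted alone in the same way. The pairing comes from the labels, which match both states of an embryo. The deviations of an embryo's states from their group means correlated at 0.10, 0.05 and -0.05 for WT embryos 1, 2 and 3 and at 0.03, 0.21 and 0.20 for Het embryos. For WT embryo 3 and Het embryo 1, the transformed culture correlated best with the untransformed culture of another embryo of its genotype. The fit was also run on simulated arrays that gave both states the same spread for each gene. The transformed cultures here spread more widely than the untransformed ones, and that run did not probe this difference.

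The members and the gene lists were chosen with earlier results of these data known. Named genes were the 20 largest called rises and the 20 largest called falls that moved the same way in 3 of 3 embryos and lay above the median level in the higher state, per list and direction the 4 called members with the largest change (or the 2 smallest p-values where none was called), all Ras and Myc genes, Eif4e, and the 5 smallest p-values in each direction for the genotype difference. Other list members, the genes for sex and the genes with a wide spread were named after their values were seen. Alternatives were no replicate block, a filter at the 40th percentile, all probe sets, quantile normalization, median centring, other variance and weight settings, WT arrays alone, a change of at least 1, and leaving out each embryo. No culture dates or scan batches were used here.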

Additional observations from a re-analysis of the deposited data

How the results depend on the processing

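The counts of 1100 rises and 1349 falls stayed within 1.5 times under no replicate block (1430 and 1560), the low value filter (1130 and 1346), all probe sets, quantile normalization, median centring, trend and robust variance, array weights, and WT arrays alone with no replicate block (891 and 1178). They were 481 and 796 with WT arrays alone and the replicate block, and 184 and 445 when a log2 change of at least 1 was also asked. Leaving out 1 embryo at a time gave 425 to 1028 rises and 550 to 1328 falls. The lowest counts were without WT embryo 1 and then without WT embryo 2 (457 and 686). Without WT embryo 3, which removes as many arrays, they were 1028 and 1328. The reason for this difference was not tested. Of the 1100 rises and 1349 falls, 1023 and 1270 were also called with no replicate block. In the fit of 12 arrays the replicate block moved no count of calls by over 1.5 times, while on WT arrays alone the rises were 481 with it and 891 without it. In the fit of 12 arrays, 12 of 158 named called genes were called only with it. The genotype difference gave 0 genes in limma under every alternative run, with 674 to 1117 genes at an unadjusted p under 0.05. Of the 158 named called genes, 97 held without each of the 6 embryos, the call was lost by 46 with embryo 1, 47 with embryo 2 and 27 with embryo 3 of WT left out, and none changed sign. With WT arrays alone and the replicate block, 110 of the 158 kept the call and 48 lost it. Calls said to hold in the text above refer to leaving out embryos and not to that fit. Values near 0 that were never called changed sign when 1 embryo was left out: Acer2 ranged from -0.0207 to 0.0376 and Fbn2 from -0.107 to 0.274; the cause was not tested. The median change over all genes stayed between 0.00 and 0.02 under all of these. The signal of genes at or below the median of all values may be partly background, which was not measured here. This can limit the size of rises and falls where the lower state lies there.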

Other observations

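The share of genes called differed between chromosomes. On chromosome 15, which carries Myc, 76 of 741 genes rose (10.3%) and 39 fell (5.26%), against 5.59% and 6.86% of all 19661 genes. On the other autosomes and the X chromosome the share that rose was 2.51% to 7.21%, lowest on chromosome 7, where 43 of 1715 genes rose. The median change over chromosome 15 genes was 0.04, 0.00 and 0.10 in WT embryos 1, 2 and 3, and 0.04, 0.06 and 0.06 in the 3 Het embryos, so the value of WT embryo 3 was the highest of the 6. Over all genes these medians were 0.01, -0.01 and 0.00 in WT and 0.03, 0.04 and 0.06 in Het embryos, so the Het values of chromosome 15 lay near those of all genes. Other chromosomes had medians of similar size in single embryos, such as 0.10 on chromosome 1 in Het embryo 3 and 0.08 on chromosome 10 in Het embryo 1. These shares were not tested, and no copy number was measured here.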
